A study of Mus musculus with 8 samples.

Results

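The 34 genes described here encode the machinery that builds peroxisomes and the enzymes and transporters that handle lipids inside them. They were taken by gene symbol from the 25124 gene rows of the expression table, and all 34 were found. They comprise 13 peroxins (Pex genes) and 21 genes of transport, oxidation, ether lipid synthesis and other peroxisomal functions. The genes were measured in livers of fasted C57BL/6 mice 1 hr after vehicle or GW4064 at 30 mg/kg, a synthetic agonist of the bile acid receptor FXR. Total RNA-seq covered WT mice with 2 vehicle and 2 GW4064 libraries, each pooling liver RNA from 2 of the 4 mice per treatment. Global run-on sequencing (GRO-seq), which reads RNA made by engaged polymerases in isolated nuclei, covered WT and FXR KO mice with each treatment, with 1 library per condition. By the study's methods the WT mice of GRO-seq carried floxed Fxr alleles, and the KO mice came from that strain crossed to Albumin-Cre, so that Fxr was deleted in hepatocytes and cells of their lineage, while other liver cells kept it. Mice were male by the study's text, and their ages were not given in the sources used here. The vehicle is named DMSO or only vehicle in the sample labels and corn oil in the study.

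Peroxisomes import folded enzymes from the cytosol through peroxins, and they shorten very long-chain and branched fatty acids that mitochondria cannot take, making hydrogen peroxide on the way. The liver is rich in them, and in rodents ligands of the nuclear receptor PPARα raise many of their enzymes. FXR and PPARα both bind DNA with RXR, FXR mostly at inverted repeats of the half-site AGGTCA and PPARα mostly at direct repeats of it.

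The RNA-seq libraries held 13924465 to 14047255 rebuilt reads and the GRO-seq libraries 5069395 to 14173715, the FXR KO libraries being the shallowest. Values are RPKM, read densities scaled by row length and library depth, and each row spans the whole gene with its introns. Nr1h4, which encodes FXR, had 9.09 and 9.38 RPKM in vehicle and 3.90 and 3.72 RPKM in GW4064 RNA-seq. In GRO-seq it had 15.1 RPKM in WT vehicle, 4.23 in WT GW4064, 16.7 in FXR KO vehicle and 20.6 in FXR KO GW4064, and since its row spans the gene, this value does not check a deletion of part of it. Abcb11, the bile salt export pump and a textbook FXR target, had 4.61 and 56.0 RPKM in WT vehicle and GW4064 against 1.20 and 1.58 RPKM in the FXR KO libraries. Nr0b2, another such target, had 3.65 and 36.6 RPKM in WT against 0.118 and 1.19 RPKM in FXR KO, the last pair resting on 2 and 20 reads. Hepatocyte markers led in every library. Their summed level over 6 genes was 309 to 354 RPKM in RNA-seq. In GRO-seq it was 528 to 532 RPKM in WT and 826 to 852 RPKM in FXR KO, and Apoa1 and Alb gave most of that difference. In RNA-seq, Ttr had 29.6 and 29.6 RPKM in vehicle and 19.8 and 21.8 RPKM in GW4064. Cps1 also had both GW4064 values below vehicle, Hnf4a had both above, and the other hepatocyte markers overlapped. None of the 26 marker genes tested passed the RNA-seq threshold, which 2.13% of all tested genes passed as higher and 1.15% as lower. The sums of 6 blood cell markers were 54.0 to 55.2 RPKM in vehicle and 57.6 to 63.9 RPKM in GW4064. Of these 6, Hba-a1 and Hbb-bs had both GW4064 values above vehicle and Ptprc had both below, while the others overlapped. The sums of 5 sinusoidal endothelial markers were 16.9 to 17.2 RPKM in vehicle and 17.7 to 18.0 RPKM in GW4064. None of these 5 had both GW4064 values above vehicle, Kdr and Pecam1 had both below, and the others overlapped. Kupffer cell, stellate cell and cholangiocyte sums overlapped between treatments, and 4 of the 5 cholangiocyte genes lay under the filter on low values. The part of these markers in the results was not tested. In bulk liver, fewer cells of a type and less RNA per cell cannot be told apart.

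The genes ranged widely in level. Acaa1b was highest at a mean of 35.4 RPKM over the 4 RNA-seq libraries, followed by Cat at 19.6 and Phyh at 18.9 RPKM. The lowest were Abcd2 at 0.943, Agps at 0.858 and Far1 at 0.366 RPKM. Even Far1 stood above 51.6% of all rows, and Acaa1b stood above 99.7% of them. On this scale, which includes introns, the most abundant genes belonged to lipid oxidation and peroxide removal, and the lowest to ether lipid synthesis and very long-chain acyl transport. The order depends on that scale. If all reads were exonic, reads per exonic base would be 3.63 for Phyh, 3.28 for Cat, 3.13 for Slc27a2, 2.66 for Lonp2 and 2.65 for Acaa1b. At the low end they would be 0.0564 for Far1, 0.0948 for Acox3, 0.101 for Pex10, 0.110 for Abcd2 and 0.140 for Agps. In GRO-seq the order began differently, with Slc27a2 first at a mean of 36.2 RPKM over 4 libraries, then Acaa1b at 28.0, Phyh at 27.7 and Cat at 27.6 RPKM. Among the RNA-seq neighbours, Cat, Phyh and Slc27a2 could not be ordered beyond their spread over the 4 libraries.

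**Figure D1:**
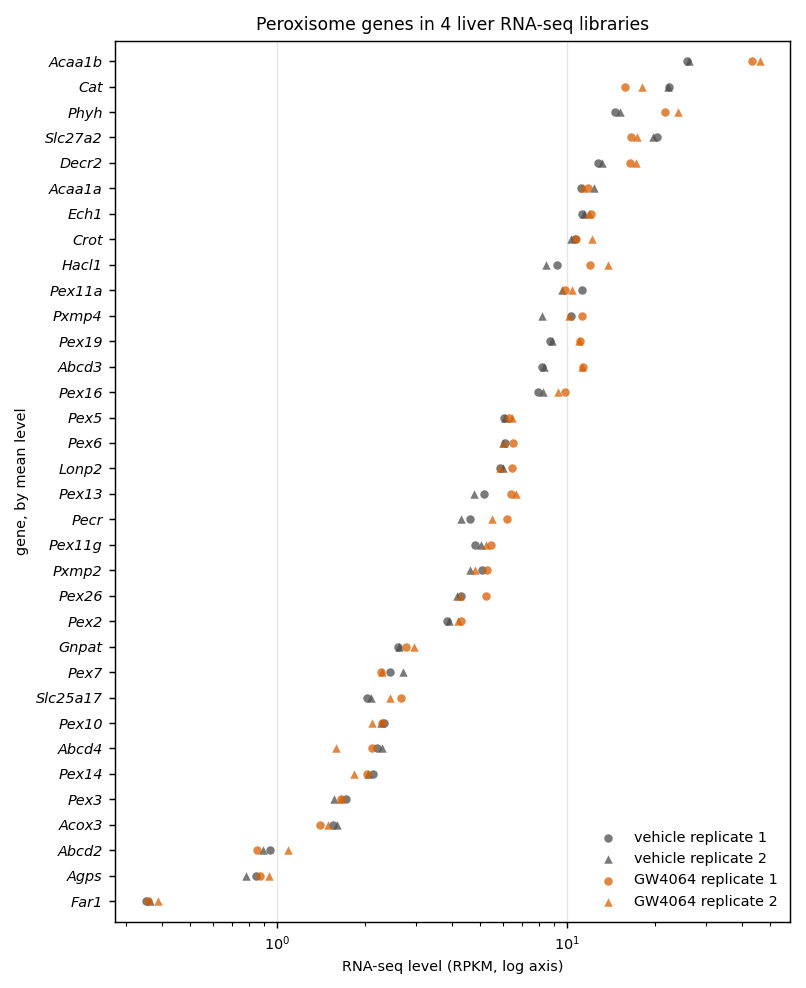
RNA-seq level in RPKM (log axis) of the 34 genes, ordered by mean level, with 1 point per library (2 vehicle, 2 GW4064). The GW4064 points of Acaa1b, at 43.4 and 46.1 RPKM, lie to the right of its vehicle points, while those of Cat lie to the left, and for most genes the 4 points lie close together.

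Promoter sequences are shown for the 2 genes whose RNA rose (Acaa1b and Abcd3), for Acaa1a as the near copy of Acaa1b, and for Cat, which held the only near match to a direct repeat. Each is the RefSeq window of 300 bases on GRCm38.p6, from 250 bases before to 50 after the start of transcription, written 5′ to 3′ on the gene's strand, and its start equals that of the gene's row. Capitals mark a match with up to 2 mismatches over 12 fixed bases to AGGTCANTGACCT (IR1) or AGGTCANAGGTCA (DR1), searched on both strands. The windows lie at chr9:119157044-119157343 (minus strand) for Acaa1b, chr9:119341044-119341343 (plus strand) for Acaa1a, chr3:121815253-121815552 (minus strand) for Abcd3 and chr2:103485104-103485403 (minus strand) for Cat.
Acaa1b: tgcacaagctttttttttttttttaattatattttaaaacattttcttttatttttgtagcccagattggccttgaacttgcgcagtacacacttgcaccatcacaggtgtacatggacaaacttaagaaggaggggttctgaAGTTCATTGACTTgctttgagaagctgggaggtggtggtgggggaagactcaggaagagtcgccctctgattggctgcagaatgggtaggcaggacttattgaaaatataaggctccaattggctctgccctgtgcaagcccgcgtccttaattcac
Acaa1a: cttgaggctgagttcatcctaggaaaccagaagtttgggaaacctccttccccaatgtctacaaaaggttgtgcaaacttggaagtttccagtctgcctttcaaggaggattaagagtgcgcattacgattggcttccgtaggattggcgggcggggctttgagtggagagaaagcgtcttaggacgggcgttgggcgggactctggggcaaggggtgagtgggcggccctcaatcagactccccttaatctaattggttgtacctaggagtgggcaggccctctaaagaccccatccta
Abcd3: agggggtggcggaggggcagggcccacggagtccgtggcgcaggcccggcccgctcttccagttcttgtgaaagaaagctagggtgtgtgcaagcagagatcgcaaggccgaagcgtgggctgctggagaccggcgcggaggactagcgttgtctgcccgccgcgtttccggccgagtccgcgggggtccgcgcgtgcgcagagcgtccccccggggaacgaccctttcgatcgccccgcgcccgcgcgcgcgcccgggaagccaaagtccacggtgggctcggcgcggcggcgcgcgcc
Cat: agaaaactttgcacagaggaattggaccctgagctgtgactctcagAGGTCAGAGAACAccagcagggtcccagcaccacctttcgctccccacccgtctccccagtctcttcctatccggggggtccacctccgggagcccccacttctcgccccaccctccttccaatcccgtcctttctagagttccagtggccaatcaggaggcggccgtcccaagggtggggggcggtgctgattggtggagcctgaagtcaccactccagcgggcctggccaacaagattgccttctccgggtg

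Of the 34 genes, 29 had a promoter in the RefSeq table. Abcd2, Abcd4, Pex2, Pex19 and Pxmp2 were not matched. The 29 genes had 34 windows, since some had more than 1 start. Counts for the set are of genes, whereas the shares of all promoters are of windows. Abcd3 had another window, not shown, without a match. An IR1 match stood in 1 of the 29, that of Acaa1b, with AGTTCATTGACTT beginning at position -107 from the start, against 1.14% of 32851 promoters of the same length. A DR1 match also stood in 1 of the 29, that of Cat, with AGGTCAGAGAACA beginning at position -204, against 3.86% of all promoters. No DR1 with up to 1 mismatch was found in the 29. The GC content of these promoters had a median of 58.8%, against 52.7% for all. A match is a description of letters, and binding was not measured here.

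The first comparison asked which of the genes changed in RNA 1 hr after FXR activation in WT liver. Acaa1b and Abcd3 were higher after GW4064, a thiolase of β-oxidation and a fatty acyl-CoA importer of the peroxisome membrane, and no gene of the set passed the threshold in the lower direction. Of the 34 genes, 33 reached the filter, a mean of 0.5 RPKM, Far1 being the exception, and were tested with limma among 11408 genes. The counts were 2 higher, 0 lower and 31 not past the threshold of adjusted p under 0.05, where 2.13% of all tested genes were called higher and 1.15% lower. At an unadjusted p under 0.05, 10 genes of the set were higher and 2 lower, where 10.6% of all tested genes were higher and 10.6% lower. The set had a median log2 change of 0.12 against -0.0028 for all genes tested. It had 24 positive and 9 negative values, where all genes tested had 5616 positive and 5792 negative. Both GW4064 values exceeded both vehicle values for 17 genes, where 26% of all genes did so, and both lay below for 6 genes, where 28.1% did so. The values of the remaining 10 overlapped. With limma-voom on rebuilt reads, 9 genes were higher and 1 was lower, where 4.58% and 4.22% of all genes were. The added ones were Decr2, Hacl1, Pecr, Pex13, Pex19, Phyh and Slc25a17 in the higher direction and Cat in the lower. Fits without 1 of the 4 libraries leave 1 library in a group and cannot show whether the calls of Acaa1b and Abcd3 rested on 1 library.

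**Figure D2:**
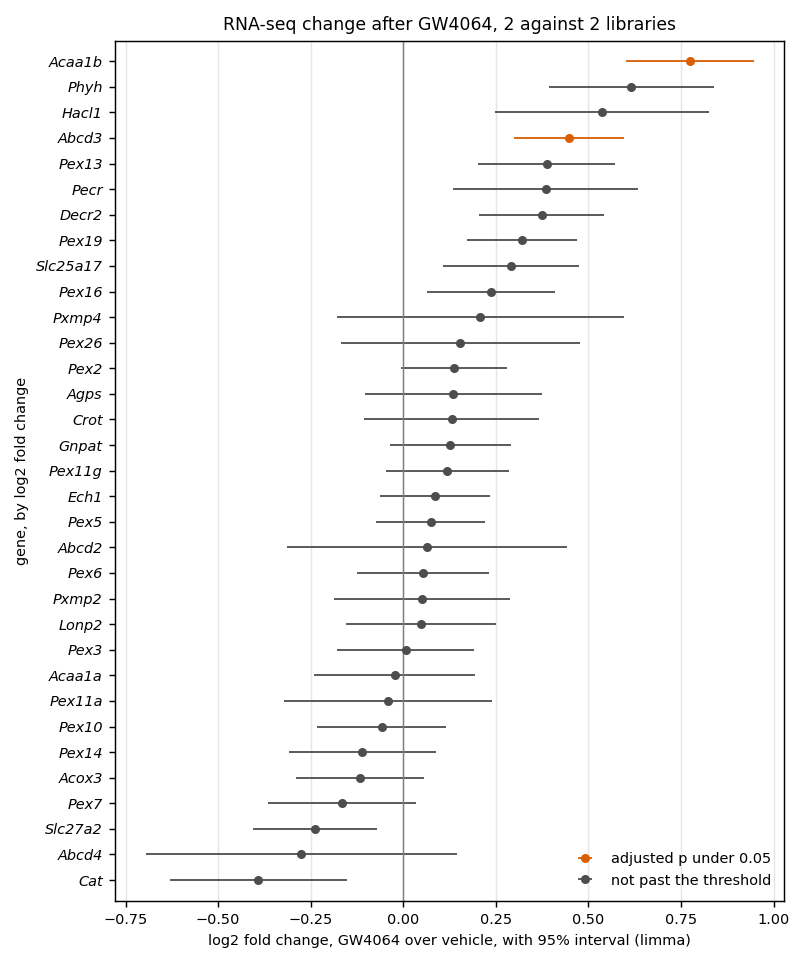
Fitted log2 fold change of GW4064 over vehicle with its 95% interval (limma, 2 against 2 libraries) for the 33 tested genes, ordered by change. Acaa1b at 0.77 and Abcd3 at 0.45 are past the threshold (orange), and Phyh at 0.62 and Hacl1 at 0.54 have larger changes than Abcd3 with wider intervals.

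Among the enzymes of peroxisomal β-oxidation, Acaa1b (chr9:119148043-119157093), a 3-ketoacyl-CoA thiolase that performs the last step of each round, had 25.9 and 26.3 RPKM in vehicle and 43.4 and 46.1 RPKM in GW4064 libraries. The groups did not overlap, and both GW4064 libraries were high. The change was 1.71-fold (log2 0.77 ± 0.06 SE, n = 2 per treatment, adjusted p = 0.025 by limma). The adjusted p was 0.169 with no filter on low values. The near copy Acaa1a (chr9:119341294-119350295), which encodes the other thiolase of the pair, had 11.2 and 12.4 RPKM in vehicle and 11.8 and 11.3 RPKM in GW4064. These values overlapped, with a log2 change of -0.02 (95% interval -0.24 to 0.19). How reads that fit both copies were divided is not given in the sources used here, so their separate levels are uncertain. The Acaa1b row also overlaps that of Dlec1 on the opposite strand, whose mean was 1.2 RPKM.

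The other genes grouped here under β-oxidation did not pass. Decr2, a dienoyl-CoA reductase for unsaturated chains, had 12.8 and 13.2 RPKM in vehicle and 16.5 and 17.3 RPKM in GW4064, with no overlap (log2 0.37, adjusted p = 0.071 by limma). Pecr, an enoyl-CoA reductase, had 4.64 and 4.29 against 6.21 and 5.51 RPKM (log2 0.38, adjusted p = 0.132 by limma). Both stood with all GW4064 values on the high side and an adjusted p above the threshold. Crot, which makes carnitine esters of shortened chains for export, had a log2 change of 0.13, and Ech1, a dienoyl-CoA isomerase, one of 0.09. Ech1 had 11.3 and 11.4 RPKM in vehicle and 12.1 and 11.9 RPKM in GW4064. Acox3, an oxidase for branched-chain acyl-CoA, had a log2 change of -0.12 from a mean of 1.51 RPKM.

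Phyh and Hacl1 carry out successive steps of α-oxidation, by which the branched phytanic acid loses a carbon. Phyh (chr2:4918996-4938743) had 14.6 and 15.2 RPKM in vehicle and 21.7 and 24.2 RPKM in GW4064, a 1.53-fold difference (log2 0.62 ± 0.08 SE, n = 2 per treatment, adjusted p = 0.051 by limma). It lay just outside the threshold, and was past it under 4 of the alternatives, with adjusted p of 0.042 with a filter at a mean of 1 RPKM, 0.042 with median centring, 0.039 with robust eBayes and 0.008 with limma-voom. Hacl1, the lyase that cleaves the hydroxylated product, had 9.24 and 8.44 RPKM in vehicle and 11.9 and 13.9 RPKM in GW4064 (log2 0.54 ± 0.10 SE, adjusted p = 0.10 by limma). In both genes the GW4064 values lay above the vehicle values. The α-oxidation pair had the highest median change of any role of more than 1 gene, at 0.58, but neither gene passed the threshold. In WT GRO-seq the pair lay on opposite sides of 0, with Phyh at 0.68 and Hacl1 at -0.32.

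Of the transporters, Abcd3 (chr3:121758904-121815302), which brings branched and long dicarboxylic acyl chains into the peroxisome, had 8.16 and 8.34 RPKM in vehicle and 11.3 and 11.3 RPKM in GW4064. The groups were apart by far more than the spread within either. The change was 1.36-fold (log2 0.45 ± 0.05 SE, n = 2 per treatment, adjusted p = 0.043 by limma). It was not past the threshold with quantile normalization (adjusted p = 0.054) or with eBayes at trend=FALSE (adjusted p = 0.054). With 1 library left out, its log2 change was 0.43 to 0.46. Abcd2, a carrier of very long-chain acyl groups, had 0.943 and 0.890 against 0.85 and 1.09 RPKM, with overlapping groups. Abcd4, a relative placed mainly at lysosomes in cobalamin transport, had 2.22 and 2.30 RPKM in vehicle and 2.13 and 1.60 RPKM in GW4064, both lower, with a log2 change of -0.28 (adjusted p = 0.382 by limma). Slc27a2, which activates very long-chain fatty acids to their CoA esters, had 20.3 and 19.8 against 16.6 and 17.4 RPKM. Its groups did not overlap, at log2 -0.24 (adjusted p = 0.15 by limma). Slc25a17, a carrier of CoA and nucleotides in the peroxisome membrane, had 2.04 and 2.10 against 2.67 and 2.45 RPKM, at log2 0.29 (adjusted p = 0.127 by limma).

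None of the 13 peroxins passed the limma threshold, and 3 of them had an unadjusted p under 0.05, all higher, where 10.6% of all tested genes were higher at that p. With limma-voom Pex13 and Pex19 passed, both higher. Their median log2 change was 0.07, against 0.13 for the 20 other genes tested, a difference that was not tested. Of the import receptors, Pex5, for the C-terminal targeting signal, was at 0.07 with its GW4064 values above vehicle. Pex7, for the N-terminal signal, was at -0.16 with its GW4064 values below vehicle (adjusted p = 0.298 by limma). At the docking complex Pex13 had 5.16 and 4.78 RPKM in vehicle and 6.41 and 6.65 RPKM in GW4064 (log2 0.39, adjusted p = 0.080 by limma), while its partner Pex14 was at -0.11. The 2 docking genes thus lay on opposite sides of 0. The Pex13 row overlaps that of Pus10 on the opposite strand, at a mean of 1.86 RPKM.

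Pex2 and Pex10, ubiquitin ligases that mark the receptors for recycling, had log2 changes of 0.14 and -0.06. Pex6 and its membrane anchor Pex26, which pull the receptors back out, were at 0.05 and 0.15. The genes that insert membrane proteins were all positive, with Pex19, the soluble chaperone of membrane proteins, at 0.32 (8.71 and 8.89 against 11.1 and 10.9 RPKM, adjusted p = 0.076 by limma), Pex16 at 0.24 and Pex3 at 0.01. Pex19 and Pex16 had all GW4064 values above vehicle, and Pex3 did not. Pex11a and Pex11g, which elongate the organelle before division, were at -0.04 and 0.12. Pex11a is known as a PPARα-responsive peroxin, and its 11.2 and 9.63 RPKM in vehicle overlapped the 9.80 and 10.4 RPKM in GW4064.

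In ether lipid synthesis, Gnpat and Agps, the enzymes of the initial steps inside the peroxisome, had log2 changes of 0.13 and 0.13. Agps had 0.845 and 0.782 RPKM in vehicle and 0.869 and 0.937 RPKM in GW4064, without overlap. Far1, which supplies the fatty alcohol, had 0.353 and 0.363 against 0.359 and 0.388 RPKM and was not tested. The 95% intervals of the fitted changes of Gnpat and Agps included 0. Cat, the catalase that removes hydrogen peroxide, had 22.4 and 22.2 RPKM in vehicle and 15.9 and 18.1 RPKM in GW4064. Both GW4064 values lay below both vehicle values, with the most negative change of the set (log2 -0.39 ± 0.09 SE, adjusted p = 0.120 by limma). With quantile normalization and with limma-voom Cat passed as lower. Lonp2, a matrix protease, was at 0.05, and the membrane proteins Pxmp2 and Pxmp4 were at 0.05 and 0.21, all with overlapping groups.

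Other peroxisomal genes were counted from a separate list of 48, of which 43 were tested. The median log2 change was 0.12, with 3 higher and 1 lower, where 2.13% of all tested genes were higher and 1.15% lower. Ehhadh, the bifunctional enzyme of β-oxidation, had 10.7 and 10.1 RPKM in vehicle and 19.3 and 18.9 RPKM in GW4064 (log2 0.88, adjusted p = 0.020 by limma). Uox, the urate oxidase of the rodent peroxisome core, rose from 12.3 and 13.6 to 20.5 and 20.5 RPKM, and Hsdl2, a dehydrogenase-like protein, from 4.02 and 3.88 to 5.54 and 5.50 RPKM. Baat, which conjugates bile acids, fell from 13.5 and 13.9 to 9.16 and 9.76 RPKM. The genes called higher were oxidative enzymes and a protein of uncertain function, and the gene called lower acts on bile acids. Ppara itself had 12.6 and 11.97 RPKM in vehicle and 8.94 and 8.92 RPKM in GW4064 (log2 -0.46, adjusted p = 0.049 by limma, and 0.050 with median centring). Of 34 genes of fat oxidation and PPARα response outside the peroxisome, 1 was higher and 2 were lower, at a median of 0.13. The shares of all tested genes were 2.13% and 1.15%. The gene called higher was Acot1, and those called lower were Ppara and Rxra, which encodes an RXR. Rxra had 12.6 and 12.5 RPKM in vehicle and 8.96 and 8.82 RPKM in GW4064 (log2 -0.49, adjusted p = 0.036 by limma). Among Ehhadh, Uox, Hsdl2, Baat and Ppara, only the call of Hsdl2 held with no filter on low values.

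GRO-seq asked which genes differed in nascent transcription and whether the difference was seen without FXR. With 1 library per condition there is no replicate check and no test, and the intervals given are exact 95% intervals that cover counting error only. Ratios are log2 of RPKM + 0.1. A mean of 0.5 RPKM over the GRO-seq libraries was required, which 32 of the 34 genes reached, Abcd2 and Far1 being below. In WT, 5 genes stood at or past 1.5-fold higher in GW4064, namely Acaa1b, Decr2, Phyh, Pex13 and Abcd3, and 0 lower, where 6.1% of 10169 genes were that much higher and 6.82% lower. In FXR KO, 0 genes were higher and 2 lower, Acaa1a and Abcd4, where 2.61% and 3.11% of all genes were. The median ratio of the set was -0.0047 in WT and -0.06 in FXR KO, against -0.09 and -0.02 for all genes used.

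**Figure D3:**
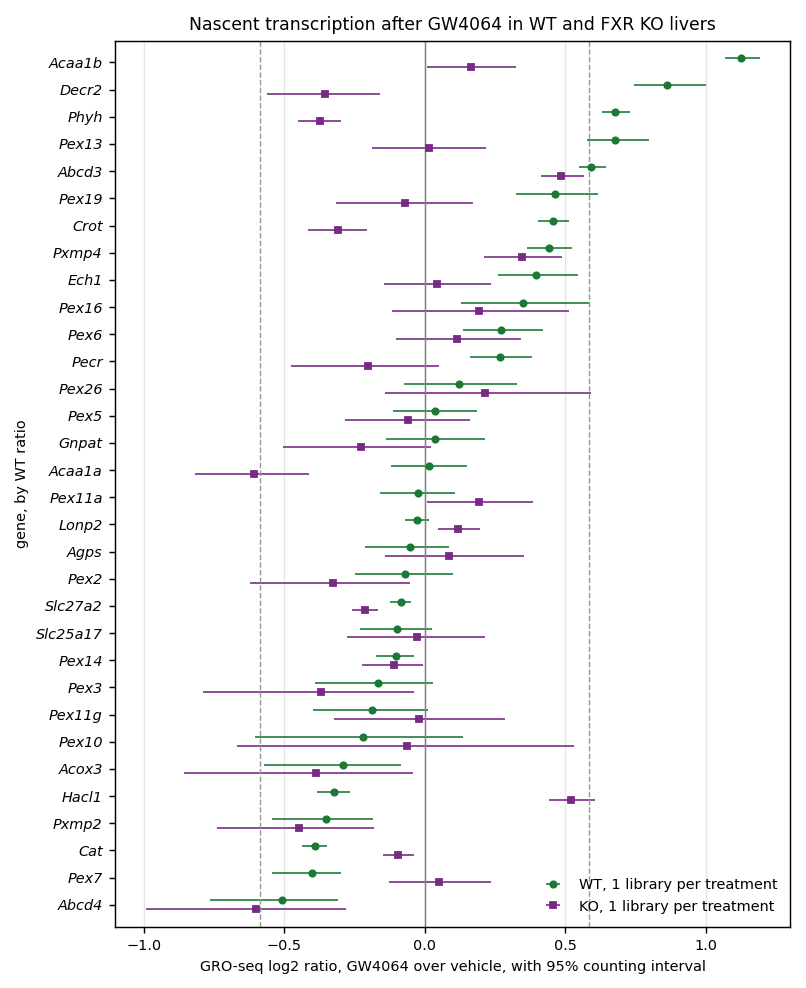
GRO-seq log2 ratio of GW4064 over vehicle in WT (circles) and FXR KO (squares) for the 32 genes above the filter, ordered by the WT ratio, with 95% counting intervals and dashed lines at 1.5-fold. Acaa1b, Decr2, Phyh, Pex13 and Abcd3 lie past the right line in WT, and in FXR KO Abcd3 and Hacl1 lie closest to it from below.

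Acaa1b had 26.2 RPKM in WT vehicle and 57.3 RPKM in WT GW4064, a log2 ratio of 1.13 (interval 1.07 to 1.19). In FXR KO it had 13.5 and 15.1 RPKM, a ratio of 0.17 (0.01 to 0.32). Of the 32 genes used it was the only one past 2-fold in WT. Decr2 had 6.82 and 12.5 RPKM in WT, a ratio of 0.86 (0.75 to 1.00), against 10.2 and 7.98 RPKM in FXR KO, a ratio of -0.36 (-0.56 to -0.16). Phyh had 21.3 and 34.2 RPKM in WT, a ratio of 0.68 (0.63 to 0.73), against 31.2 and 24.0 RPKM in FXR KO, a ratio of -0.37 (-0.45 to -0.30). Decr2 and Phyh were therefore higher with GW4064 in WT and lower with it in FXR KO, and their FXR KO vehicle levels exceeded those of WT vehicle. Pex13 had 4.60 and 7.41 RPKM in WT, a ratio of 0.68 (0.58 to 0.80), and 4.22 and 4.27 RPKM in FXR KO, a ratio of 0.02 (-0.19 to 0.22). Abcd3 behaved unlike these, with 8.41 and 12.7 RPKM in WT (ratio 0.59, 0.55 to 0.65) and 8.21 and 11.5 RPKM in FXR KO (ratio 0.49, 0.41 to 0.57). It was thus higher with GW4064 in both genotypes, at 1.51-fold just inside and 1.40-fold just outside the limit. Differences between genotypes were not tested, since each condition has 1 library.

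Among genes under 1.5-fold in WT, Pex19 came nearest at 0.46, followed by Crot at 0.46 and Pxmp4 at 0.44. In FXR KO their ratios were -0.07 for Pex19, -0.31 for Crot and 0.35 for Pxmp4. Hacl1, the partner of Phyh in α-oxidation, was at -0.32 in WT (12.7 and 10.1 RPKM) and 0.52 in FXR KO (11.8 and 17.0 RPKM), while its RNA-seq values were higher in GW4064. Its nascent and total RNA values thus pointed in opposite directions in WT. The most negative WT ratios were those of Abcd4 at -0.51 (2.24 and 1.55 RPKM), Pex7 at -0.40 and Cat at -0.39 (26.1 and 19.9 RPKM). Abcd4 was also lower in FXR KO, with 2.25 and 1.45 RPKM, a ratio of -0.60 (-0.99 to -0.28). Cat was at -0.09 in FXR KO, with 33.2 and 31.1 RPKM. Acaa1a had 8.30 and 8.39 RPKM in WT, a ratio of 0.02, and 11.1 and 7.25 RPKM in FXR KO, a ratio of -0.61 (-0.82 to -0.41).

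The genes at low levels carried wide intervals. Abcd2 had 0.326 and 0.162 RPKM in WT, from 213 and 79 reads (counting interval of the log2 ratio -1.40 to -0.63), and 0.721 and 0.637 RPKM in FXR KO. Agps had 0.625 and 0.599 RPKM in WT and 0.516 and 0.555 RPKM in FXR KO, and Far1 0.270 and 0.250 against 0.212 and 0.222 RPKM. At these levels Agps and Far1 showed no difference beyond counting error in either genotype. The genes above the filter and not named so far had WT ratios between -0.35 for Pxmp2 and 0.40 for Ech1, and FXR KO ratios between -0.45 for Pxmp2 and 0.21 for Pex26.

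Total and nascent RNA came from separate mice and were set side by side by direction. Of the 17 genes whose GW4064 RNA-seq values all lay above vehicle, 12 had a WT GRO-seq ratio above 0, which is 70.6%, near the 68.2% of all such genes. All 6 genes with RNA-seq values below vehicle (Abcd4, Acox3, Cat, Pex14, Pex7 and Slc27a2) had a negative WT ratio, where 11.4% of all such genes had a positive one. Among genes above vehicle the share was thus close to that of other genes.

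The last comparison set FXR KO against WT vehicle livers and shares its vehicle libraries with both comparisons above. At or past 1.5-fold, 2 genes were higher in FXR KO and 3 lower, where 5.83% and 5.76% of all genes were. Acaa1b had 26.2 RPKM in WT and 13.5 RPKM in FXR KO, a log2 ratio of -0.95 (-1.08 to -0.83). Pecr had 3.95 and 2.03 RPKM, a ratio of -0.92 (-1.15 to -0.77), and its row overlaps that of D230017M19Rik on the opposite strand, at a mean of 3.08 RPKM in RNA-seq. Acaa1b and Pecr had the most negative ratios of the set. Pecr had 4.78 RPKM in WT GW4064 and 1.76 RPKM in FXR KO GW4064. Slc25a17 had 2.05 and 1.32 RPKM, a ratio of -0.60 (-0.82 to -0.44), with 1.91 and 1.29 RPKM under GW4064.

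Slc27a2 was higher in FXR KO, with 29.6 RPKM in WT and 46.9 RPKM in FXR KO vehicle, a ratio of 0.66 (0.63 to 0.70), and 27.9 and 40.4 RPKM under GW4064. Ech1 had 8.29 and 12.8 RPKM, a ratio of 0.62 (0.45 to 0.79), with 11.0 and 13.2 RPKM under GW4064. Decr2 at 1.49-fold and Phyh at 1.46-fold lay just under the limit, and median centring took both past it. The summed hepatocyte markers were also higher in FXR KO vehicle, at 852 RPKM against 528 RPKM in WT vehicle. Most of that gap came from Apoa1 (142 RPKM in WT and 345 RPKM in FXR KO) and Alb (164 and 271 RPKM). Cps1 was also higher (49.0 and 65.4 RPKM), and Ttr was near equal (63.1 and 64.8 RPKM). Fgb (83.2 and 81.6 RPKM) and Hnf4a (26.8 and 23.9 RPKM) were lower. The part of these markers in the ratios was not tested. The median ratio of the set was -0.02, against -0.07 for all genes, and none of the 13 peroxins reached 1.5-fold.

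**Figure D4:**
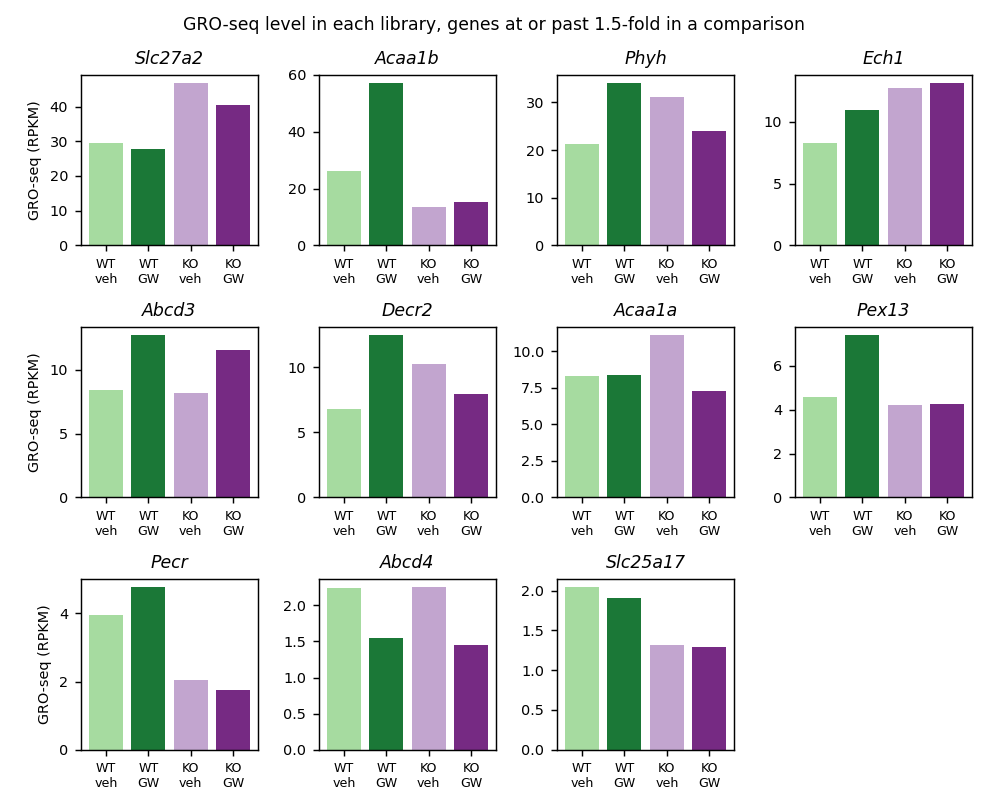
GRO-seq level in RPKM (axis from 0) in each of the 4 libraries, WT and FXR KO with vehicle (veh) or GW4064 (GW), for the 11 genes at or past 1.5-fold in a comparison; each bar is 1 library and has no error bar. Acaa1b stands at 57.3 RPKM in WT GW4064 against 13.5 and 15.1 RPKM in FXR KO, whereas Abcd3 is higher with GW4064 in both genotypes.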

How the data were processed

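Liver RNA-seq and GRO-seq were analysed from 1 table of 25124 gene rows. Values are RPKM computed by the authors and deposited with row lengths. Reads were mapped to mm10 with STAR 2.7.3a and rows quantified with HOMER, and bcl2fastq and FastQC are named in the submitters' processing notes. Library totals of 5069395 to 14173715 reads were rebuilt from the steps of the low values, at which 100% of the values tested were whole within 0.15, and listed rows held 89.2% to 92.4% of them. The totals are lower than the uniquely mapped reads that the study lists for each library, and which reads entered the RPKM values is not given in the sources used here, so counting intervals and limma-voom rest on the rebuilt totals. The columns used were those of the 8 libraries.

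For RNA-seq, log2(RPKM + 0.1) of the 11408 genes whose mean reached 0.5 RPKM was fitted with limma 3.58.1 (R 4.3.3, eBayes trend=TRUE), treatment as the only term, with Benjamini-Hochberg adjustment over all of them. Fold changes on this scale understate low genes. The study's methods name DESeq2 for eRNAs, which was not run because the deposited values are not counts. GRO-seq ratios use the same added value and filter, a limit of 1.5-fold and at least 20 rebuilt reads in a library of the pair. Intervals are exact Clopper-Pearson intervals (scipy 1.17.1) for counting error only. Of the row overlaps, 6 of the 34 genes share bases with another row, and whether counting used strand is not given in the sources used here.

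The genes and the comparison lists were chosen with earlier results of these data known. Every gene of the set is named. Values in every library are given for genes past the RNA-seq threshold or 1.5-fold in GRO-seq, for the 3 highest and 3 lowest by mean RPKM and for Acaa1a, and others were added after their values were seen. Alternatives were other added values (0.01 and 1 RPKM), filters, normalizations, variance models, a replicate block, each library left out, limma-voom on rebuilt reads and a 2-fold limit. The labels name no sequencing batch. Protein sequences were not used here.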

Additional observations from a re-analysis of the deposited data

Results flagged for a closer look

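In 4 genes the GRO-seq ratio of GW4064 over vehicle lay above 0 in one genotype and below 0 in the other, with both counting intervals clear of 0. The WT ratio exceeded that of FXR KO by 1.22 on the log2 scale for Decr2 (0.86 and -0.36), by 1.05 for Phyh (0.68 and -0.37) and by 0.76 for Crot (0.46 and -0.31). For Hacl1 the WT ratio minus that of FXR KO was -0.84 (-0.32 and 0.52). The share of all genes that met this rule was not computed, so the 4 cannot be set against it. The difference between genotypes was not tested, because each condition has 1 library. Decr2, Phyh and Crot are enzymes of fatty acid oxidation or export, and Hacl1 acts after Phyh in α-oxidation.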

How the results depend on the processing

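Acaa1b kept a log2 change of 0.62 to 0.82 and Abcd3 one of 0.39 to 0.46 under every RNA-seq alternative, but their calls did not always hold. The count of higher genes in the set, 2 as reported, was 1 with no filter, with quantile normalization and with eBayes at trend=FALSE, 3 with a filter at 1 RPKM, median centring or robust eBayes (Phyh added), and 9 with limma-voom on rebuilt reads. The count of lower genes, 0 as reported, was 2 with quantile normalization (Cat and Slc27a2) and 1 with limma-voom. The median change of the set was 0.062 with quantile normalization. For the other peroxisomal genes, 3 higher and 1 lower as reported, the higher count was 1 with quantile normalization, 5 with robust eBayes and 8 with limma-voom. Their lower count was 0 with a filter at a mean of 0.1 RPKM, with no filter and with trend=FALSE, and 2 with a filter at 1 RPKM, quantile normalization, robust eBayes or limma-voom. Over all genes, 243 higher and 131 lower became 522 and 481 with limma-voom. With 1 library left out, where the lone library is assumed to vary like the other group, the counts were 0 in each case in the set and among the other peroxisomal genes, and 0 to 32 higher and 0 to 11 lower over all genes, the 32 and 11 being without vehicle replicate 1.

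Deviations of same-numbered libraries from their group means had a correlation of -0.02 over 11408 genes. With 2 libraries per treatment this cannot show whether the libraries were paired. With the replicate block, 0 genes of the set, 0 other peroxisomal genes and 0 of all genes passed in either direction, the smallest adjusted p in the set being 0.082, while 12 of the set had an unadjusted p under 0.05.

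Small changes turned sign. With quantile normalization Pex6 was at -0.0024, Lonp2 at -0.0071 and Pxmp2 at -0.0071. With 1 library left out, Pex3 ranged from -0.056 to 0.069, Abcd2 from -0.097 to 0.22, Lonp2 from -0.022 to 0.12 and Pxmp2 from -0.018 to 0.12, and Pex11a ranged from -0.15 to 0.069 and Acaa1a from -0.10 to 0.052.

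In GRO-seq the WT count of 5 higher became 1 at 2-fold, and the WT count of lower genes became 1 (Abcd2) with a filter at 0.1 RPKM. The FXR KO count of 2 lower became 0 with 1 RPKM added, median centring or a 2-fold limit. Against WT vehicle, the count of 2 higher in FXR KO became 1 with 1 RPKM added, 4 with median centring and 0 at 2-fold, and the 3 lower became 0 at 2-fold. The cause of these shifts was not tested. At 48 to 51 reads, as for Pex10 in the FXR KO libraries, depth limits what a ratio can show.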
